A study of Mus musculus with 16 samples.

Results

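Transcripts of the nuclear-encoded subunits of the mitochondrial respiratory chain were examined in the mammary glands of SV40 Tag mice. The set held 47 genes of complexes I to IV and cytochrome c, and 45 of them were measured among the 18193 genes tested. The genes were chosen by name, with earlier results of these data known. A gene was read from the probe set, a group of short oligonucleotides for a transcript, that carried its symbol alone and had the highest mean over the arrays. Ndufs6, an accessory subunit of complex I, had only a probe set shared with another symbol, and Cox7b, a small subunit of complex IV, had none, so neither was measured.

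The study asked how living alone changes gene expression in a gland prone to tumours. Female FVB/N mice, homozygous for SV40 large Tag under the C3(1) fragment of a rat prostate gene promoter, were weaned and then kept either singly (isolated) or with other females (grouped). This transgene, which all 4 groups carried, drives tumours of the mammary epithelium, and no group was free of it. Thoracic glands were taken whole, in estrus and at a fixed hour of the dark phase, from isolated mice at 20 weeks, grouped mice at 20 weeks, isolated mice at 15 weeks and grouped mice at 15 weeks, with 4 arrays in each group. Arrays carry replicate numbers in the labels, which do not say outright that each is a different animal, and the p-values cover only the spread among these samples.

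The respiratory chain sits in the inner mitochondrial membrane. Complex I takes electrons from NADH and complex II takes them from succinate, and both pass them through ubiquinone to complex III, cytochrome c and complex IV, which reduces oxygen. Complexes I, III and IV pump protons, and ATP synthase uses the resulting gradient. Brown fat, muscle and other tissues that oxidise much fuel are rich in these proteins. A mammary fat pad holds epithelium, white fat, vessels and immune cells, and thoracic pads lie close to muscle and to brown fat.

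Levels are log2 values, in which a difference of 1 is a doubling. Array medians were 8.31 to 8.34 at 20 weeks and 8.09 to 8.11 at 15 weeks. The median probe set was 0.24 higher at 20 weeks as deposited, and control probe sets that are not made by the mouse were higher too (medians 0.12 to 0.19). Ages were therefore compared after quantile normalization of all 16 arrays, which brought the median shift to 0.01, while housings were compared within an age on the deposited values. Age and array run cannot be told apart. The difference between 3' and 5' probe sets of Gapdh, a sign of RNA breakdown, was -0.06 to 0.02 at 20 weeks and -0.09 to 0.02 at 15 weeks. In whole glands, fewer cells of a type and less RNA per cell cannot be told apart.

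The respiratory chain genes were among the brightest on the arrays. Mean deposited levels over the 16 arrays lay between 10.8 and 14.2 for 43 of the 45, against lower array quartiles of 6.98 to 7.04 at 20 weeks and 6.76 to 6.79 at 15 weeks. Ndufb4 (7.13), an accessory subunit of complex I, and Cox7c (7.44), a small subunit of complex IV, were read from probe sets near those quartiles. Of the 45 genes 29 had more than 1 probe set, and in 24 of these all probe sets had the same sign of age difference in isolated mice, and likewise in 24 in grouped mice. For the housing difference the signs agreed in 24 of the 29 at 20 weeks and in 18 at 15 weeks. Levels of different probe sets are not compared here as amounts of RNA, since each probe set has its own response.

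The genes lie on 17 chromosomes. RefSeq promoter windows of assembly GRCm38.p6, each 300 bases (250 before to 50 after a start site), matched 37 of the 47 genes with 39 windows. Ndufa2, Ndufb9, Ndufs1, Sdhc, Uqcrb, Uqcrc2, Uqcrq, Cyc1, Cox4i1 and Cox6c had no window. Windows are printed for complex II, all of whose subunits were lower at 20 weeks in both housings, and for Ndufs4, an accessory subunit of complex I that was among the subunits of smallest p in both age comparisons. They run 5′ to 3′ on the gene's strand. Capitals mark the letters GCGCANGCGC (an NRF1 motif, for the nuclear respiratory factor), CCGGAAG (an ETS motif, as read by GABP) and AAGATGG (a YY1 motif), searched on both strands. Sdha is at chr13:74350191-74350490 on the minus strand, Sdhb at chr4:140961021-140961320 on the plus strand, Sdhd at chr9:50603800-50604099 on the minus strand and Ndufs4 at chr13:114388045-114388344 on the minus strand.
Sdha: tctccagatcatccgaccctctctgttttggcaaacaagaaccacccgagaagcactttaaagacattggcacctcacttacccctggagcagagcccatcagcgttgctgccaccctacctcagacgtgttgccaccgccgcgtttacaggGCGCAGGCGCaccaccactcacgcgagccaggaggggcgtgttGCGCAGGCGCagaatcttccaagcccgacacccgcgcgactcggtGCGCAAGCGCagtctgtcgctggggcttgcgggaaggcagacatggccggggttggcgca
Sdhb: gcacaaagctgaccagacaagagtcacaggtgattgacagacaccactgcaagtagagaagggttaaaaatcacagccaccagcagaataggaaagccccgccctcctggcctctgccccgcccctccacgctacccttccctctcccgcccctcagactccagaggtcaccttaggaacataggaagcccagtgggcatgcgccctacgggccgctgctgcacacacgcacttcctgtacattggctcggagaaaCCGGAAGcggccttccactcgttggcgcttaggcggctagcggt
Sdhd: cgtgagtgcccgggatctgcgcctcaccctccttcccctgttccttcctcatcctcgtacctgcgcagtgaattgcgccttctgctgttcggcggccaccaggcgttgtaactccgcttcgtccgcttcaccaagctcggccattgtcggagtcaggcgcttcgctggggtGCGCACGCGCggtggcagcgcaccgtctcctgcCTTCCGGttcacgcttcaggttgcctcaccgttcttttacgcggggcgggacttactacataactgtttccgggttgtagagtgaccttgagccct
Ndufs4: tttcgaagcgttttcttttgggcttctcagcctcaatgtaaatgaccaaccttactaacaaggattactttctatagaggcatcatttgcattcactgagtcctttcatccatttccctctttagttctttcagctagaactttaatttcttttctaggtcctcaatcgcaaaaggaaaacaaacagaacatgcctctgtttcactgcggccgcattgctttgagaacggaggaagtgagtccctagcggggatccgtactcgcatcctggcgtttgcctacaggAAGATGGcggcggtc

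The Sdha window held 3 NRF1 matches, the Sdhb window 1 ETS match, the Sdhd window 1 NRF1 and 1 ETS match, with 1 match of the estrogen-related receptor letters that is not in capitals, and the Ndufs4 window 1 YY1 match just past the start site. Over the set, NRF1 letters were in 23.1% of 39 windows, against 4.6% of all 32851 windows. YY1 letters were in 20.5% of the set's windows and 6.34% of all windows, and ETS letters in 17.9% and 8.86%. Letters of the estrogen-related receptor motif (AAGGTCA) were in 7.69% and 4.72%, those of the CCAAT box (CCAAT) in 30.8% and 37.4%, and those of the TATA box (TATAAA) in 12.8% and 13.6%. The set's windows also had a higher median share of G and C, 59.3% against 52.7%. The window of Ndufb4, which has a dim probe set and was not called with age in either housing, also held 3 NRF1 matches. These are counts of letters and say nothing of binding. A link between motifs and age differences was not tested.

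Between 15 and 20 weeks, respiratory chain transcripts fell in isolated mice. Of the 45 subunits, 40 were lower at 20 weeks, 1 was higher and 4 did not pass the test (limma, adjusted p under 0.05 over all genes). Over all 18193 genes 25.7% were lower and 24.7% higher, and 24.5% were lower among the 4549 genes with a mean level of 10.13 or more, where 43 of the subunits lie. The median difference of the subunits was -0.54 and that of all genes -0.01. In 41 subunits every array at 20 weeks lay below every array at 15 weeks, as it did for 24.9% of all genes. On the deposited scale, which carries the upward shift of all probe sets, 26 subunits were lower and the median was -0.35. Ndufa1, Ndufa4, Sdhc, Sdhd, Uqcrb, Cycs and Cox4i1, described here, did not pass on that scale.

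All 6 measured subunits of the complex I core, the part where its flavin and iron-sulfur clusters lie, fell in isolated mice (median -0.62). Ndufs1, the largest iron-sulfur subunit, had normalized levels of 10.7, 10.96, 10.97 and 11.57 in isolated mice at 20 weeks, against 11.93, 12.08, 12.09 and 11.98 at 15 weeks. It was 1.96-fold lower at 20 weeks (log2 difference -0.97, SE 0.16, adjusted p = 0.000987). The groups did not overlap, although replicate 4 at 20 weeks stood well above the rest of its group. Ndufs7, an iron-sulfur subunit next to the quinone site, fell by 0.67 on the log2 scale (SE 0.099, adjusted p = 0.000637), and Ndufs3 fell by 0.85 (SE 0.19, adjusted p = 0.00526).

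Of the 21 measured accessory subunits of complex I, which surround the core and stabilise it, 17 fell in isolated mice (median -0.54). Ndufb10, in the membrane arm, had levels of 11.03, 11.19, 11.46 and 11.56 at 20 weeks, against 12.01, 12.15, 12.19 and 12.11 at 15 weeks (log2 difference -0.81, SE 0.11, adjusted p = 0.000435). Ndufa5, in the matrix arm, had 11.42, 11.34, 11.56 and 11.5 at 20 weeks, against 11.87, 11.89, 12.05 and 11.95 at 15 weeks (-0.48, SE 0.067, adjusted p = 0.000429). Neither gene's groups overlapped, and Ndufa5, whose arrays lay closer together, had the smallest p of the set. Ndufs4, whose loss in people and mice causes complex I deficiency, fell by 0.66 (SE 0.095, adjusted p = 0.000551) on its brightest probe set, while its other probe sets disagreed (-0.02 at a mean level of 9.64, -0.37 at 8.12 and 0.1 at 5.42). Ndufb3 fell by 0.75 (adjusted p = 0.000981). Ndufb2 fell by 0.45 (SE 0.067, adjusted p = 0.000645), with another probe set at -0.57 and a dim probe set (mean 7.81) at 0.19. The accessory subunits that did not pass were Ndufa2 (-0.02, adjusted p = 0.873), Ndufa7 (-0.18, adjusted p = 0.0752), Ndufc2 (-0.14, adjusted p = 0.129) and the dim Ndufb4 (-0.077, adjusted p = 0.569). The other probe sets of Ndufa7 differed by -0.65 to -0.3 and those of Ndufc2 by -0.31 to -0.21, so both genes' values depend on the probe set. Ndufa1, the brightest of complex I, fell by 0.33 (adjusted p = 0.00945).

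All 4 subunits of complex II, the succinate dehydrogenase shared with the citric acid cycle, fell in isolated mice. Sdha, the flavoprotein, had levels of 11.57, 11.86, 12.02 and 12.63 at 20 weeks, against 12.99, 13.14, 13.11 and 13.08 at 15 weeks. It was 2.09-fold lower at 20 weeks, the lowest difference among the 45 (log2 difference -1.06, SE 0.19, adjusted p = 0.00145). Sdhb, the iron-sulfur subunit, had 12.16, 12.43, 12.53 and 12.73 at 20 weeks, against 13.06, 13.11, 13.18 and 13.16 at 15 weeks (-0.67, SE 0.11, adjusted p = 0.000915). The arrays of the 2 ages did not overlap for either gene, and replicate 1 was lowest and replicate 4 highest at 20 weeks for both. The membrane anchors Sdhc and Sdhd fell by 0.63 (adjusted p = 0.00721) and 0.41 (adjusted p = 0.00764).

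In complex III all 6 measured subunits fell in isolated mice (median -0.63). Uqcrc2, a core protein, had 11.51, 11.94, 12.06 and 12.51 at 20 weeks, against 12.81, 12.85, 12.86 and 12.8 at 15 weeks (-0.83, SE 0.17, adjusted p = 0.00342). Cyc1, the cytochrome c1 that hands electrons on, fell by 0.6 (SE 0.11, adjusted p = 0.00177), and Uqcrb, the brightest of the whole set, fell by 0.29 (adjusted p = 0.0255). The call of Uqcrb was lost without any 1 of the 4 arrays at 15 weeks and without replicate 2 at 20 weeks. Cycs, the mobile cytochrome c, had 13.43, 13.61, 13.79 and 13.93 at 20 weeks, against 14.1, 14.06, 14.12 and 14.09 at 15 weeks (-0.4, SE 0.098, adjusted p = 0.00791). Its other probe sets differed by -0.43 (mean level 13.4), -0.94 (12.44) and -0.3 (7.95), and that of Uqcrb by -0.58 (12.53). The arrays of the 2 ages did not overlap for Uqcrc2 or Cycs, and the 15-week arrays lay much closer together than the 20-week arrays.

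Complex IV showed the smallest falls of the complexes in isolated mice on the probe sets used, with a median of -0.28, 6 of 7 subunits lower and 1 higher. Its probe sets were also the brightest, with a median level of 13.54, against 12.3 for complex I, 12.6 for complex II and 12.74 for complex III. Other probe sets of a gene could differ in size of fall or in sign, as for Cox6c (-0.28 at a mean level of 13.54 and 0.07 at 12.93). The part of probe set brightness in this ranking was not tested. Cox4i1, the common form of subunit 4, had 13.59, 13.57, 13.65 and 13.8 at 20 weeks, against 13.96, 13.88, 14 and 13.9 at 15 weeks (-0.28, SE 0.065, adjusted p = 0.0064). Ndufa4, named for complex I but a part of complex IV, had 13.01, 12.9, 12.99 and 13.02 at 20 weeks, against 13.13, 13.16, 13.14 and 13.16 at 15 weeks (-0.17, SE 0.05, adjusted p = 0.0209). Both shifts were small and left no overlap between ages, and that of Ndufa4 did not pass without replicate 2 at either age. The exception was the dim Cox7c probe set, with 7.99, 7.7, 7.6 and 7.62 at 20 weeks, against 7.25, 7.19, 7.27 and 7.06 at 15 weeks (0.54, SE 0.091, adjusted p = 0.00126). It was the only subunit higher at 20 weeks, and its other probe set was dimmer still (mean 5.69).

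**Figure D1:**
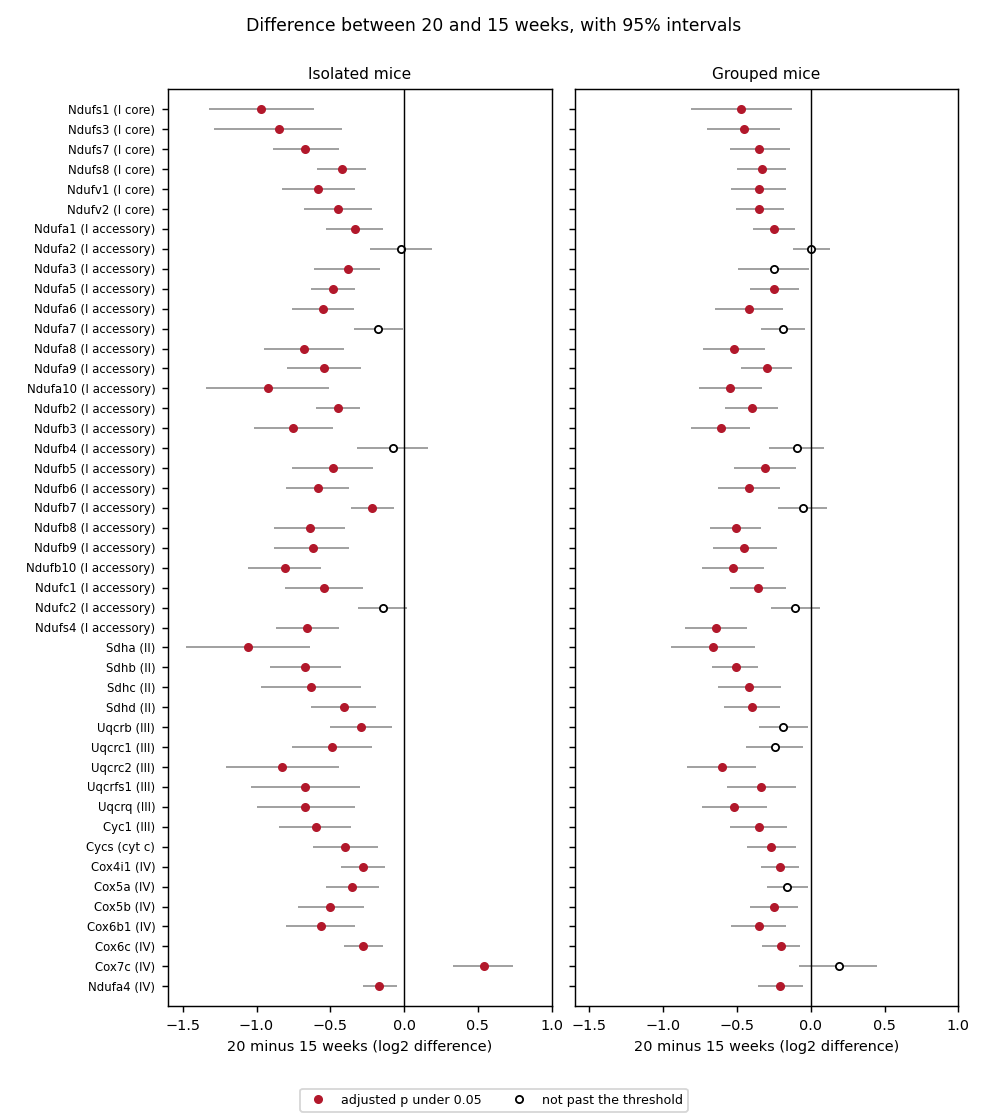
Differences between 20 and 15 weeks (log2, normalized scale) for 45 subunits in isolated mice (left) and grouped mice (right), with points for the fitted difference and lines for its 95% interval. Filled points passed the adjusted p threshold; 41 are filled for isolated mice and 35 for grouped mice, and nearly all lie left of 0.

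Grouped mice also had lower respiratory chain transcripts at 20 weeks. Of the 45 subunits, 35 were lower, 0 higher and 10 did not pass (limma, adjusted p under 0.05), where 19.3% of all genes were lower and 19.3% higher (18% lower among those with a mean level of 10.13 or more). The median difference was -0.35, against 0 for all genes, and in 36 subunits the ages did not overlap with 20 weeks below (18.6% of all genes). On the deposited scale 24 were lower, 2 were higher and the median was -0.24. Without grouped replicate 1 at 20 weeks 27 were lower.

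Sdhb had the smallest p in grouped mice, with levels of 12.52, 12.56, 12.64 and 12.64 at 20 weeks, against 13.07, 13.09, 13.25 and 13 at 15 weeks. It was 1.43-fold lower at 20 weeks (log2 difference -0.51, SE 0.069, adjusted p = 0.000811). Its 8 arrays fell into 2 tight blocks by age. Sdha had 12.05, 12.32, 12.57 and 12.48 at 20 weeks, against 12.98, 12.86, 13.29 and 12.95 at 15 weeks (-0.66, SE 0.13, adjusted p = 0.00395), and Sdhc and Sdhd fell by 0.42 (adjusted p = 0.00944) and 0.4 (adjusted p = 0.00607).

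In complex I, Ndufs4 had 10.43, 10.45, 10.61 and 10.45 at 20 weeks, against 10.88, 11.2, 11.32 and 11.12 at 15 weeks in grouped mice (-0.64, SE 0.094, adjusted p = 0.00118), with its other probe sets at 0.12, -0.26 and 0.05. Ndufb3 had 10.86, 11.08, 11.11 and 11.14 at 20 weeks, against 11.48, 11.66, 11.81 and 11.69 at 15 weeks (-0.61, SE 0.089, adjusted p = 0.00115). The ages did not overlap for either gene, and replicate 1 was the lowest array of each group. Ndufb8, in the membrane arm, fell by 0.51 (SE 0.076, adjusted p = 0.00123). All 6 core subunits and 15 of 21 accessory subunits of complex I passed.

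Further along the chain, Uqcrc2 fell by 0.6 in grouped mice (SE 0.1, adjusted p = 0.00259), Cyc1 by 0.35 (adjusted p = 0.0118) and Cycs by 0.27 (adjusted p = 0.018). Complex III had 4 of 6 subunits lower and complex IV 5 of 7, with a complex IV median of -0.21. Cox4i1 fell by 0.21 (adjusted p = 0.021) and Ndufa4 by 0.21 (adjusted p = 0.0379). Cox7c differed by 0.19 (adjusted p = 0.238). The fall of Ndufa4 in grouped mice kept its call in 1 of the 8 fits that left out an array (without replicate 1 at 15 weeks). Cox4i1 lost its call without replicate 2 at 15 weeks or replicate 1 or 2 at 20 weeks, and Cycs without replicate 2 at 15 weeks. Sdhc, Cycs, Cox4i1 and Ndufa4 did not pass on the deposited scale.

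The 35 subunits lower in grouped mice were all among the 40 lower in isolated mice, which is 35 of 35 and 35 of 40. Cox5a, Ndufb7, Uqcrc1, Ndufa3 and Uqcrb passed in isolated mice without passing in grouped mice, and Ndufa2, Ndufa7, Ndufb4, Ndufc2 and Cox7c were lower in neither. These lists do not show that the fall differed between housings. The interaction of housing and age, which tests that difference on the deposited values, called 0 of 45 subunits (limma; 0.011% of all genes; 0 subunits had an unadjusted p under 0.05, against 12.7% of all genes). Its median was -0.09, with 37 of 45 negative (52.3% of all genes), and the smallest p values were those of Cox7c (0.33, SE 0.16, adjusted p = 0.405), Ndufs1 (-0.41, adjusted p = 0.497), Ndufs7 (-0.25, adjusted p = 0.52), Ndufs3 (-0.32, adjusted p = 0.612) and Sdha (-0.33, adjusted p = 0.621). The 95% intervals of the 45 differences reached from -0.92 to 0.67, so sizeable differences in either direction were within them.

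**Figure D2:**
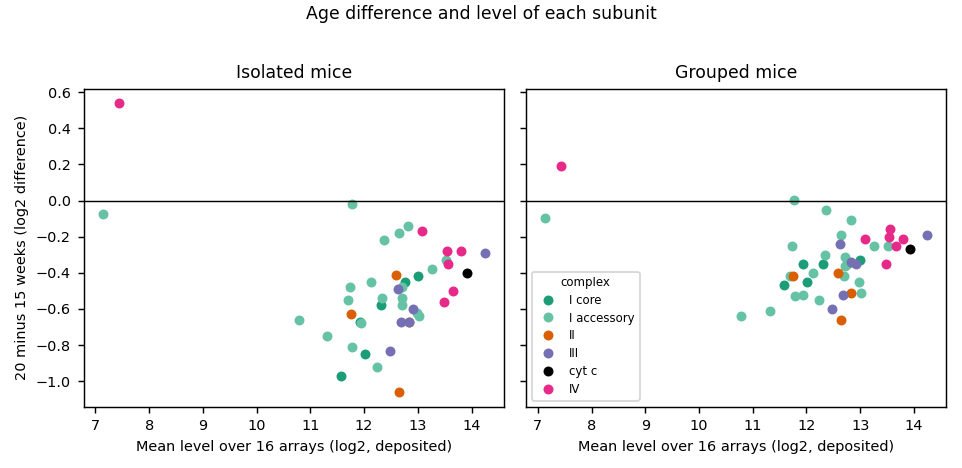
Difference between 20 and 15 weeks (log2, normalized scale) of each of 45 subunits against its mean deposited level over 16 arrays, for isolated mice (left) and grouped mice (right), coloured by complex. The 2 probe sets at the far left are Ndufb4 (7.13) and Cox7c (7.44), and Cox7c is the only point well above 0.

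At 20 weeks, no respiratory chain gene passed the test between isolated and grouped mice. Limma called 0 of 45 subunits at an adjusted p under 0.05, against 0.011% of all genes, and 1 subunit had an unadjusted p under 0.05, against 8.49% of all genes. The direction was shared, with 43 of 45 lower in isolated mice, against 53.3% of all genes, and a median of -0.16 against -0.01. The 95% intervals reached from -0.85 to 0.52. After quantile normalization of the 8 arrays at 20 weeks the median was -0.13.

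Ndufa5 was the subunit with the unadjusted p under 0.05, with deposited levels of 11.5, 11.44, 11.62 and 11.69 in isolated mice at 20 weeks, against 11.7, 11.92, 11.7 and 11.74 in grouped mice (log2 difference -0.2, SE 0.08, 95% interval -0.38 to -0.02, adjusted p = 0.577). It was also the only subunit whose housing groups did not overlap at 20 weeks with isolated mice below, where 2% of all genes were so placed. Sdha had the most negative difference, with 11.65, 11.92, 12.08 and 12.79 in isolated mice, against 12.16, 12.47, 12.71 and 12.49 in grouped mice (-0.35, SE 0.22, 95% interval -0.85 to 0.15, adjusted p = 0.666). Its isolated arrays spanned the whole range of the grouped arrays and beyond at both ends. Ndufs7 (-0.24, adjusted p = 0.623), Ndufb10 (-0.25, adjusted p = 0.627) and Ndufc1 (-0.22, adjusted p = 0.671) were the others of smallest p.

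At 15 weeks, limma called 0 of 45 subunits for housing, against 0.044% of all genes, and 0 had an unadjusted p under 0.05, against 9.7% of all genes. Differences ran from -0.14 to 0.11 with a median of -0.05, 38 of 45 were negative (54% of all genes), and the 95% intervals stayed between -0.33 and 0.35. After quantile normalization of the arrays at 15 weeks the median was 0.03, so its sign depended on the scale. Ndufa4, the most negative, had 12.97, 13.07, 13.03 and 13.19 in isolated mice, against 13.03, 13.28, 13.18 and 13.32 in grouped mice (-0.14, adjusted p = 0.593). Cox7c (-0.12, adjusted p = 0.532), Ndufa7 (-0.12, adjusted p = 0.612), Sdhd (-0.11, adjusted p = 0.62) and Ndufb3 (-0.12, adjusted p = 0.627) were the others of smallest p. With both ages in the same fit 0 of 45 passed, against 0% of all genes, 0 had an unadjusted p under 0.05 (6.41% of all genes), 43 were negative (56.9% of all genes) and the median was -0.11.

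**Figure D3:**
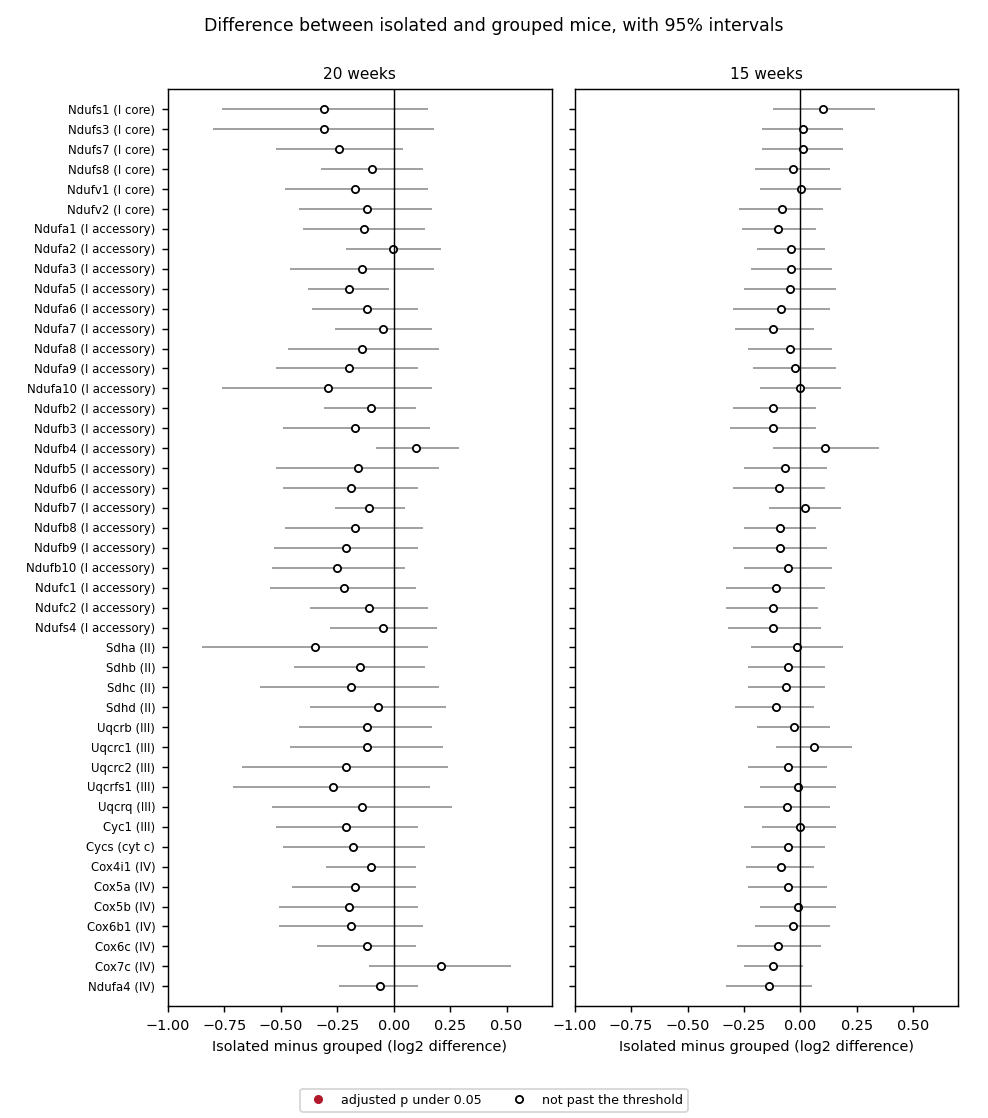
Differences between isolated and grouped mice (log2, deposited scale) for 45 subunits at 20 weeks (left) and 15 weeks (right), with 95% intervals. No point is filled, since none passed the adjusted p threshold; 43 points at 20 weeks and 38 at 15 weeks are negative.

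The subunits moved together from array to array on the deposited scale. Their deposited levels, averaged over the 45 genes, were 11.9, 12.06, 12.24 and 12.49 in replicates 1 to 4 of isolated mice at 20 weeks and 12.21, 12.35, 12.43 and 12.3 in grouped mice at 20 weeks. At 15 weeks they were 12.39, 12.49, 12.51 and 12.59 in isolated mice and 12.44, 12.52, 12.62 and 12.59 in grouped mice. Isolated mice at 20 weeks thus held both the lowest and the highest of the 8 arrays of that age. Replicate 1 was the lowest array of its group for 38 of 45 subunits in isolated mice at 20 weeks, 32 in grouped mice at 20 weeks, 41 in isolated mice at 15 weeks and 32 in grouped mice at 15 weeks. Replicate 4 was the highest for 42 subunits in isolated mice at 20 weeks and 40 at 15 weeks, and replicate 3 was the highest for 37 in grouped mice at 20 weeks and 28 at 15 weeks. After quantile normalization the means in replicates 1 to 4 of isolated mice were 12.56, 12.6, 12.64 and 12.59 at 15 weeks. Replicate 4 was thus not the highest there. At 20 weeks they were 11.87, 12.02, 12.18 and 12.34, in the deposited order. The SD over the 4 arrays had a median of 0.284 over the subunits in isolated mice at 20 weeks, against 0.113 over all genes in the same arrays. It was 0.11 in grouped mice at 20 weeks, 0.096 in isolated mice at 15 weeks and 0.105 in grouped mice at 15 weeks.

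The housing difference at 20 weeks moved with these 2 arrays. Its median over the subunits was -0.05 without isolated replicate 1 and -0.27 without isolated replicate 4, and limma called 0 subunits in either case. The age difference in isolated mice was less sensitive, with a median of -0.46 and 40 subunits lower without replicate 1.

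**Figure D4:**
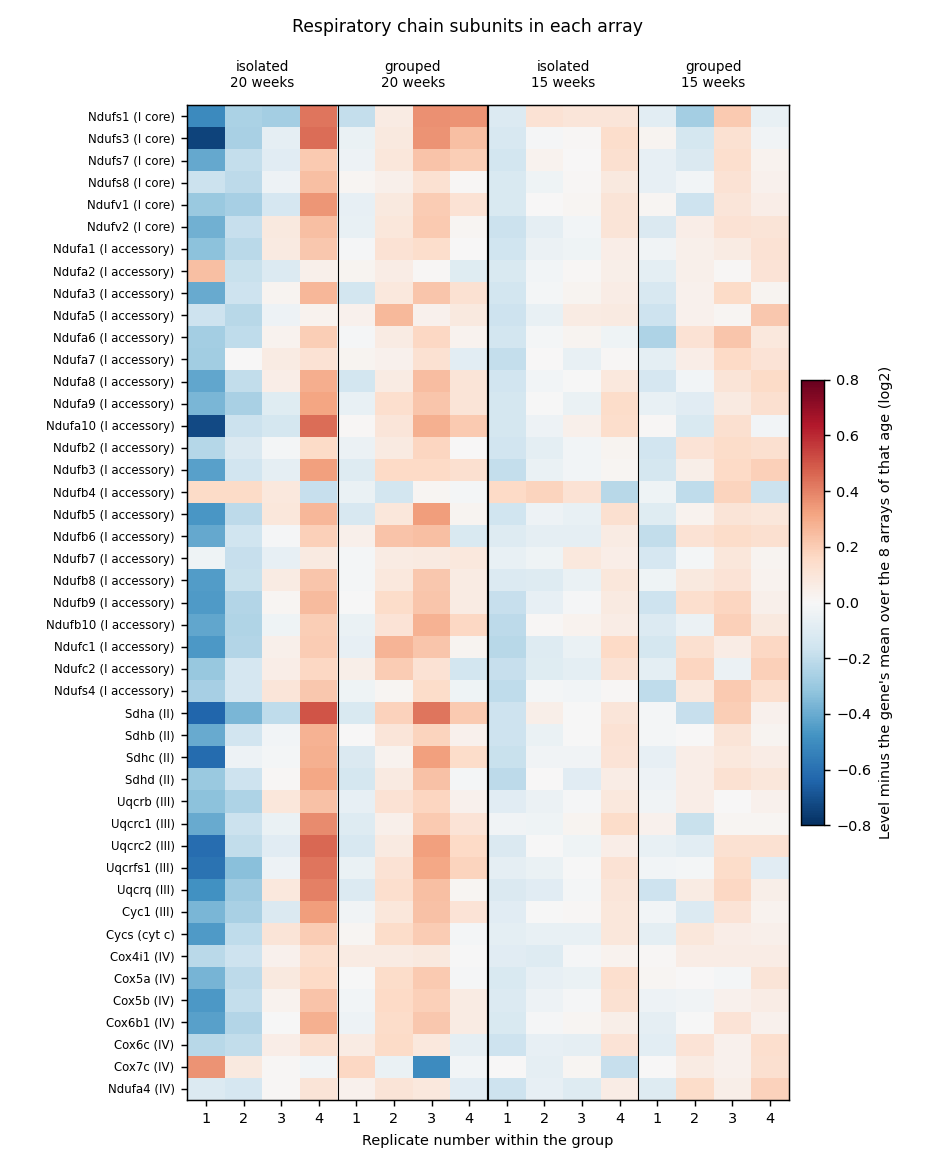
Deposited level of each of 45 subunits in each array, as the difference from the gene's mean over the 8 arrays of that age (log2, blue lower and red higher). At 20 weeks the column of isolated replicate 1 is blue and that of isolated replicate 4 red in most rows.

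Markers of other tissues also differed among these arrays, though not all kept the order of the subunits. Ucp1, the uncoupling protein of brown fat, had deposited levels of 8.74, 12.24, 12.81 and 13.65 in replicates 1 to 4 of isolated mice at 20 weeks and 11.73, 12.32, 13.01 and 12.4 in grouped mice at 20 weeks, against 13.3 to 13.53 over the 8 arrays at 15 weeks. Its order from array to array was that of the subunit mean in isolated mice at 20 weeks, but not in grouped mice at 20 weeks. The 7 measured brown fat markers averaged 8.17 to 10.84 in isolated mice at 20 weeks, 9.47 to 10.51 in grouped mice at 20 weeks, 10.75 to 10.91 in isolated mice at 15 weeks and 10.6 to 11.04 in grouped mice at 15 weeks. With age, 5 of 7 fell in isolated mice (25.7% of all genes) and 6 of 7 in grouped mice (19.3% of all genes). Ucp1 differed by -1.67 (adjusted p = 0.137) in isolated mice and fell by 1.18 (adjusted p = 0.00378) in grouped mice.

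White fat markers averaged 10.54 to 11.79 in isolated mice and 11.69 to 11.95 in grouped mice at 20 weeks, and 12.16 to 12.41 in isolated mice and 12.14 to 12.71 in grouped mice at 15 weeks. All 12 measured fell with age in both housings (medians -1.53 in isolated and -0.72 in grouped mice), and all 12 were lower, but none past the threshold, in isolated mice at 20 weeks (median -0.69). Fast muscle markers averaged 12.29 to 13.13 in isolated mice and 13 to 13.74 in grouped mice at 20 weeks, and 13.22 to 13.7 in isolated mice and 13.01 to 13.48 in grouped mice at 15 weeks. Of 15 such markers 14 fell with age in isolated mice and 0 in grouped mice, where Myh2 was higher (0.86, adjusted p = 0.0215). Replication genes ran the other way, with 10 of 11 higher at 20 weeks in both housings. Over all genes 25.7% were lower and 24.7% higher with age in isolated mice, and 19.3% lower and 19.3% higher in grouped mice. Mean levels over the 16 arrays were 8.95 or more for the white fat markers, 11.33 or more for the fast muscle markers and 9.54 or more for the replication genes, and of the brown fat markers Ppara alone lay under 8 (7.67). The luminal marker Epcam, of the epithelium that the tissue label implies, had a mean of 13.53. In replicates 1 to 4 of isolated mice at 20 weeks, white fat markers averaged 10.54, 11.08, 10.95 and 11.79. Fast muscle markers averaged 12.29, 13, 13.13 and 13.02, and neither list kept the full order of the subunit mean. Endothelial markers did, at 8.52, 8.84, 9.06 and 9.59 (Tie1 the dimmest, with a mean of 7.96). So did basal epithelial markers (9.81, 10.02, 10.04 and 10.06) and citric acid cycle genes (11.31, 11.66, 11.83 and 12.46). Slow muscle markers ran otherwise (8.71, 9.54, 9.41 and 8.54), and luminal, macrophage, lymphocyte and fibroblast markers did not keep the order. The median age difference of the endothelial markers was -0.63 in isolated and -0.06 in grouped mice. The part of fat, muscle, vessels, epithelium and proliferating cells in the subunit results was not tested.

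**Figure D5:**
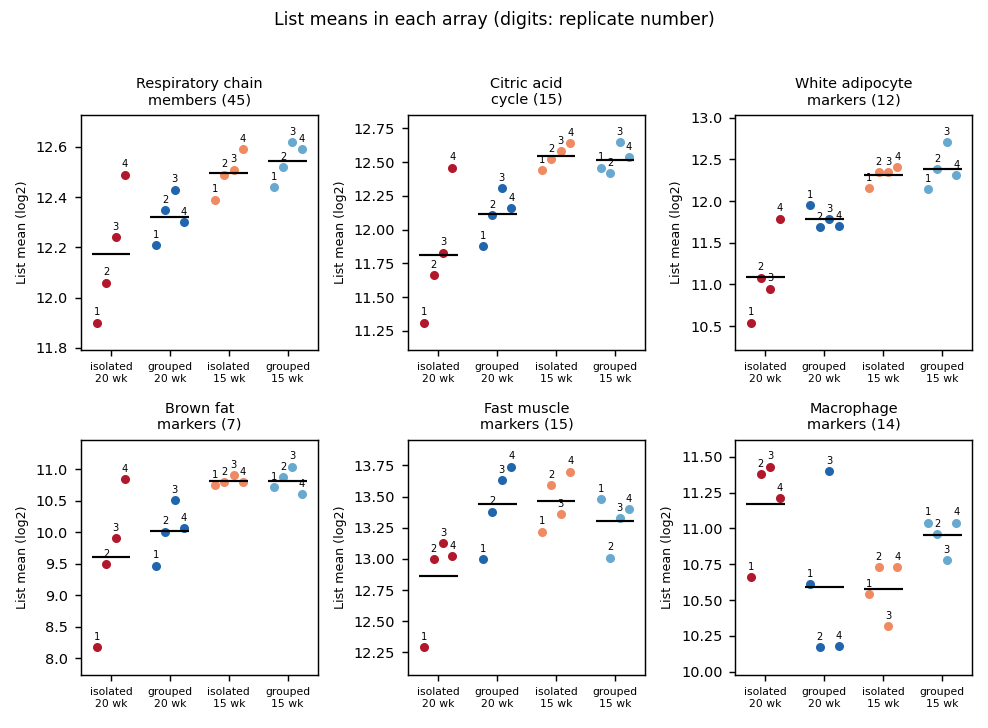
Mean deposited level (log2) of the 45 subunits, citric acid cycle enzymes and markers of white fat, brown fat, fast muscle and macrophages in each array, with digits for the replicate and bars for the group mean. In isolated mice at 20 weeks the subunit mean runs between 11.9 and 12.49 and the brown fat mean between 8.17 and 10.84, with replicate 1 lowest and replicate 4 highest in both.

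Other genes of mitochondrial metabolism were described by counts, to be read against 25.7% of all genes lower in isolated mice and 19.3% in grouped mice. Of 13 measured respiratory chain subunits outside the set, 12 fell with age in isolated mice (median -0.44) and 12 in grouped mice (-0.32). Of 15 citric acid cycle and pyruvate dehydrogenase genes, which supply the chain with NADH and succinate, 15 fell in isolated mice (median -1) and 14 in grouped mice (-0.56). Cs, the citrate synthase, fell by 1.03 in isolated mice (SE 0.21, adjusted p = 0.00293) and by 0.41 in grouped mice (adjusted p = 0.022), where the call was lost without replicate 3 at 15 weeks or replicate 2 at 20 weeks. ATP synthase had 11 of 16 genes lower in isolated mice, with 1 higher, and 6 of 16 lower in grouped mice. The higher gene was Atpif1, the inhibitor of ATP synthase (0.54, adjusted p = 0.00135), which was named after its value was seen. Of 32 assembly factors 22 were lower in isolated mice and 19 in grouped mice. For housing, 0 genes of these lists passed at either age by limma.

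Among regulators of mitochondrial genes the directions were mixed. Ppargc1a, the coactivator that drives mitochondrial biogenesis in brown fat and muscle, had normalized levels of 6.82, 7.41, 7.07 and 8.12 in isolated mice at 20 weeks, against 8.77, 8.92, 8.9 and 8.89 at 15 weeks (-1.52, SE 0.23, adjusted p = 0.000703). In grouped mice it had 7.41, 7.97, 8.15 and 8.41 at 20 weeks, against 8.67, 8.55, 9.04 and 8.25 at 15 weeks (-0.64, SE 0.22, adjusted p = 0.04), with overlap between ages. Its partner Esrra fell by 0.61 in isolated mice (adjusted p = 0.00168) and 0.42 in grouped mice (adjusted p = 0.00725), and Ppargc1b fell by 0.8 (adjusted p = 0.000954) and 0.46 (adjusted p = 0.0475). Nrf1, whose motif was counted in the promoters, was higher at 20 weeks, by 0.34 in isolated mice (adjusted p = 0.00589) and 0.39 in grouped mice (adjusted p = 0.00474). Tfam, the mitochondrial transcription factor, differed by -0.083 in isolated mice (adjusted p = 0.196) and fell by 0.25 in grouped mice (adjusted p = 0.00855), with 0.21 and 0 on the deposited scale. On that scale the grouped falls of Ppargc1a, Ppargc1b and Esrra did not pass (-0.41, -0.21 and -0.18), and those of Ppargc1a and Ppargc1b were also lost without replicate 1, 2 or 3 at 15 weeks or replicate 1 or 2 at 20 weeks (for Ppargc1b also replicate 3 at 20 weeks).

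Of 6 tissue-specific complex IV isoforms, 3 were lower and 1 higher at 20 weeks in each housing. The shares of all genes lower and higher were 25.7% and 24.7% in isolated mice, and 19.3% and 19.3% in grouped mice. Cox7a1, the muscle and brown fat form of subunit 7a, had normalized levels of 9.11, 10.71, 11.45 and 11.83 in isolated mice at 20 weeks, against 12.16, 12.22, 12.32 and 12.19 at 15 weeks (-1.44, SE 0.48, adjusted p = 0.0318). It fell by 0.95 in grouped mice (adjusted p = 0.0096). Cox8b, the corresponding form of subunit 8, fell by 1.44 in isolated mice (SE 0.46, adjusted p = 0.0254) and by 0.89 in grouped mice (adjusted p = 0.00258). Both falls in isolated mice lost their call without any 1 of the 4 arrays at 15 weeks or without replicate 2 at 20 weeks, and with all 16 arrays in the fit neither passed in grouped mice. Cox7a1 did not pass in isolated mice on the deposited scale. Cox6a2, the muscle form of subunit 6a, differed by -0.41 in isolated mice (adjusted p = 0.118) and by 0.42 in grouped mice (adjusted p = 0.154). Cox8c was the other lower isoform (-0.39 in isolated mice, adjusted p = 0.00193; -0.25 in grouped mice, adjusted p = 0.0121), and Cox6b2 the higher one (0.47, adjusted p = 0.000714; 0.33, adjusted p = 0.00811). Cox4i2 differed by 0.021 and -0.018 and did not pass. Cox8c, Cox6b2 and Cox4i2 were named after their values were seen.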

How the data were processed

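RNA of whole thoracic mammary glands was hybridised to 16 single-colour Affymetrix arrays of 45101 probe sets. The deposited values are log2 expression levels that the authors made with RMA in the affy package (version not given in the sources used here), per the submitters' processing notes. RMA corrects background, puts arrays on a common distribution and summarises probe sets. The distribution of values differed between ages, so ages were compared after quantile normalization over all 16 arrays. Arrays of an age also differed slightly, with upper quartiles of 9.35 to 9.46 at 15 weeks and 9.62 to 9.68 at 20 weeks. The platform's gene table gave 34945 probe sets a single symbol, 932 several, and left 9160 unlisted. Only single-symbol probe sets were used, with the highest mean per gene (18193 genes). Arrays have no read depth, so their number limits precision.

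For a comparison of 2 groups, only their 8 arrays entered the fit, with limma 3.58.1 in R 4.3.3 (lmFit, eBayes with trend), adjusted by Benjamini-Hochberg over all genes at a threshold of 0.05. Housing over both ages and the interaction used all 16 arrays. SE and 95% intervals come from these fits, which were tested on simulated data. No arrays were duplicates (SD of pair differences 0.115 or more). Over all genes, deviations of same-numbered arrays correlated at r from -0.21 to 0.49, with pairs below 0.1 in each comparison, so the numbers were not taken as pairs. On the deposited values, though, the subunits' lowest array was replicate 1 in each group for most genes.

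The subunits and the other lists were chosen with earlier results of these data known. Named subunits were those of smallest p in each comparison, the brightest of complexes I, III and IV, complex II, cytochromes and Ndufa4. The share of calls among bright genes was added after the data were seen. The alternatives of scale were the deposited values for ages, and quantile normalization of the arrays in a fit for housing and the interaction. The others were a filter at the 40th percentile of level, other probe sets, no trend, a replicate block, all arrays in each fit and leaving out each array.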

Additional observations from a re-analysis of the deposited data

Results flagged for a closer look

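Of 236 groups of 4 arrays checked (59 genes and list means), 16 had an array far from the other 3 for the spread of the group, and chance flags about 1 group in 20. All values are deposited log2 levels, and no cause was tested. Replicate 1 stood low on this scale in 5 of the subunits. Ndufb3 was 10.99 in grouped replicate 1 at 20 weeks, against 11.22 to 11.25 in the other 3 arrays. Ndufs4 was 10.78 in isolated replicate 1 at 15 weeks (others 10.96 to 10.99), and Ndufs1 was 11.71 in the same array (others 11.92 to 11.94). Ndufb2 was 12.1 in grouped replicate 1 at 15 weeks (others 12.36 to 12.4), and Cox4i1 was 13.89 there (others at 13.94). Cycs, and so the mean of its list of 1 gene, was high at 14.14 in isolated replicate 4 at 15 weeks (others 13.97 to 13.99). Some of these arrays stood less apart after quantile normalization. In isolated mice at 15 weeks Ndufs1 was then 11.93, 12.08, 12.09 and 11.98, and Cycs 14.1, 14.06, 14.12 and 14.09. Cox4i1 was 13.85, 13.94, 14 and 13.86 in grouped mice at 15 weeks. Ndufb3 remained low in grouped replicate 1 at 20 weeks (10.86, against 11.08, 11.11 and 11.14).

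Of other genes, Ppargc1a was 8.64 in isolated replicate 1 at 15 weeks, Nrf1 was 8.95 in isolated replicate 2 at 15 weeks, Tfam was 10.14 in grouped replicate 2 at 20 weeks, and Cox7a1 was 10.63 in grouped replicate 1 at 20 weeks (others 11.58 to 11.75). In isolated replicate 1 at 20 weeks, the array with the lowest subunit mean, the fast muscle markers averaged 12.29 (others 13 to 13.13) and the basal epithelial markers 9.81 (others 10.02 to 10.06). The lymphocyte markers averaged 8.92 in isolated replicate 3 at 20 weeks (others 8.17 to 8.25) and 9.51 in grouped replicate 1 at 15 weeks (others 8.22 to 8.29). The endothelial markers averaged 9.53 in isolated replicate 3 at 15 weeks (others 9.28 to 9.32).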

How the results depend on the processing

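Under every alternative run, 0 of 45 subunits were called for housing at either age, over both ages or for the interaction. With the arrays of a fit quantile normalized, the housing median of the subunits was 0.03 at 15 weeks and -0.13 at 20 weeks. It was -0.05 over both ages, and the interaction median was -0.16. Deposited values gave 26 subunits lower with age in isolated mice (median -0.35), and 24 lower and 2 higher among 11362 called genes in grouped mice. The filter at the 40th percentile, which tests fewer genes, left 5899 genes in isolated mice with 0 subunits higher and 4156 genes in grouped mice, and 1 gene for the interaction. With the probe set of largest variance 3 subunits were higher in isolated and 1 in grouped mice. With every probe set, where subunits have 101, 17814 were called in isolated mice (85 of subunits lower, 5 higher), 13487 in grouped mice (73 lower, 2 higher) and 4 for housing at 20 weeks. All 16 arrays in the fit gave 8 genes for housing at 20 weeks and 2 at 15 weeks, and no trend gave 1 for the interaction. The replicate block gave 17 genes for housing at 15 weeks and 61 for the interaction, and called 0 subunits in either.

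Reversed with the probe set of largest variance were Ndufb2 (0.19 in isolated, 0.2 in grouped mice), Mrps5 (0.14 and 0.22), Vdac1 (0.16 and 0.2) and Slc25a3 (0.06, isolated), and on the deposited scale Tfam (0.21, isolated) and Cox4i2 (0.21, grouped). The cause was not tested.

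Leaving out each array gave, for age in isolated mice, 7654 to 9226 genes, 37 to 40 subunits lower and a median of -0.61 to -0.46. For age in grouped mice it gave 5135 to 7071 genes, 27 to 35 lower, 0 to 1 higher and a median of -0.38 to -0.29. For housing at 20 weeks it gave 0 to 136 genes (136 without isolated replicate 4) and a median of -0.27 to -0.05, and at 15 weeks 0 to 31 genes and -0.1 to -0.01. Over both ages it gave 0 to 1 gene and -0.15 to -0.05, and for the interaction 0 to 139 genes and -0.21 to 0.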

Other observations

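Counts of called genes here stand beside 25.7% of all genes lower and 24.7% higher at 20 weeks in isolated mice, and 19.3% lower and 19.3% higher in grouped mice, and several lie near those shares, among them the import genes in grouped mice and the lower luminal genes. Mitochondrial ribosomal proteins, which translate the subunits encoded in mitochondrial DNA, were lower at 20 weeks in 19 of 26 genes in isolated mice, with 2 higher, and in 15 of 26 in grouped mice (medians -0.25 and -0.29). Mitochondrial import and outer membrane genes were lower in 9 of 17 and higher in 3 in isolated mice, and lower in 5 and higher in 1 in grouped mice. Slow muscle markers did not pass in isolated mice (0 of 9), and 8 of 9 were higher at 20 weeks in grouped mice (median 1.11). Macrophage markers were higher at 20 weeks in 7 of 14 genes in isolated mice and lower in 4 of 14 in grouped mice, while 0 of 14 passed for the interaction. Luminal epithelial markers were higher in 6 and lower in 4 of 13 in isolated mice, and higher in 8 and lower in 2 in grouped mice. Yy1, a factor whose motif was counted in the promoters, was higher at 20 weeks by 0.55 in isolated mice (adjusted p = 0.000171) and by 0.5 in grouped mice (adjusted p = 0.00732).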
